A study of Mus musculus with 6 samples.

Results

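Ano1, Bcam, Cavin3, Efemp1, Entpd3, Glipr2 and Eci3 are 7 protein-coding genes at which one histone mark was called in organoids without TNFα and the other in organoids with it. They were selected on the peak lists described here: each has, within 1000 bp on either side of an annotated transcript start, H3K27me3 in untreated organoids only, and H3K4me3 in TNFα-treated organoids only. In all, 34 of the 55341 gene symbols of the annotation met this rule, or 0.0614%, and the 7 genes are among the 25 of 21924 protein-coding genes that did, or 0.114%. Because these peaks chose the genes, the peaks at the 7 promoters are a description and carry no test.

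H3K4me3 is laid down around the starts of active or poised genes, and H3K27me3 is the mark of the Polycomb repressive complex, which holds lineage and signalling genes silent, often over CpG-rich promoters. Both marks can lie on the same promoter in a bivalent state. In the intestinal epithelium, Polycomb covers regulators of other lineages, and many housekeeping promoters carry H3K4me3 at all times. The 7 genes belong to different functions. Ano1 encodes a calcium-activated chloride channel, Entpd3 an enzyme that hydrolyses extracellular nucleotides, Bcam a laminin receptor of the immunoglobulin superfamily, Efemp1 the matrix protein fibulin-3, Cavin3 a coat protein of caveolae, Glipr2 a Golgi-associated protein of the CAP superfamily, and Eci3 a peroxisomal enoyl-CoA isomerase of fatty acid oxidation.

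The organoids came from colonic epithelium of C57BL/6 mice with no engineered allele and were cultured either without TNFα (wt) or with 40 ng/ml of the cytokine for 3 weeks (wt+TNFα). Each condition had 1 library per mark and 1 input, so no value below has a replicate error and no comparison has a test. In bulk chromatin, the share of cells that carry a mark and its amount per cell cannot be told apart. The labels state a depth of 60 M reads for H3K27me3 and of 40 M reads for H3K4me3 and input. The reporting summary of the study lists other totals, which for H3K4me3 and input were higher with TNFα. The wt lists held 30594 H3K27me3 and 11552 H3K4me3 peaks, the wt+TNFα lists 60540 and 11894. The length of chromosome X under H3K27me3 was 0.597 Mb without and 74.7 Mb with TNFα, and 3 peaks of H3K4me3 lay on chromosome Y without it and 0 with it, so an effect of TNFα and a difference between the cultures cannot be told apart. None of the 7 genes is on a sex chromosome. The epithelial label held at the marker promoters: 11 of 14 colonic epithelial markers, among them Epcam, Cdh1 and Cdx2, had H3K4me3 in each condition, with Krt20 in wt alone and Car1 in wt+TNFα alone, while Lgr5 and Muc2 had H3K27me3 in both and no H3K4me3. Of the 19 markers of other cells (7 of fibroblasts, 4 of endothelium, 4 of smooth muscle and interstitial cells of Cajal, and 4 of blood cells), 0 had H3K4me3 in either condition.

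The promoter sequences of 6 of the 7 genes were taken from RefSeq (GRCm38.p6, 250 bases before to 50 after the RefSeq start). Bcam and Glipr2 are shown as the most CpG-rich of the 6, with CpG dinucleotides in capitals. The windows are chr7:19770483-19770782 on the minus strand and chr4:43957452-43957751 on the plus strand, and each runs 5′ to 3′ on the strand of its gene.
Bcam: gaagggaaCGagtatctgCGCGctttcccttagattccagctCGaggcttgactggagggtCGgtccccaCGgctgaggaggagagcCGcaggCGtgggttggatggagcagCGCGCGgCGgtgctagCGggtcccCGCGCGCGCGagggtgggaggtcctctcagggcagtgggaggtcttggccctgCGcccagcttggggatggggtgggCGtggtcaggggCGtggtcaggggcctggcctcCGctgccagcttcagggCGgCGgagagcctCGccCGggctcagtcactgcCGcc
Glipr2: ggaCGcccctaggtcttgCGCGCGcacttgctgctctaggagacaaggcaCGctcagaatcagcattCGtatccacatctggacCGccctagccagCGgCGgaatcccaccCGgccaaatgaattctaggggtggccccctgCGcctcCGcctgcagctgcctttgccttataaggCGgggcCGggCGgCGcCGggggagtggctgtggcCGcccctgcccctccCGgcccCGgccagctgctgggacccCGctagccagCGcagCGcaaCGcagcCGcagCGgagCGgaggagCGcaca
Ano1 is shown at the starts that differ in their marks, with CpG again in capitals: the RefSeq promoter at chr7:144738524-144738823, where no list had a peak, and 300 bases of the GRCm38 genome centred on the wt+TNFα H3K4me3 summit at chr7:144751552-144751851, both on the minus strand.
Ano1 RefSeq promoter: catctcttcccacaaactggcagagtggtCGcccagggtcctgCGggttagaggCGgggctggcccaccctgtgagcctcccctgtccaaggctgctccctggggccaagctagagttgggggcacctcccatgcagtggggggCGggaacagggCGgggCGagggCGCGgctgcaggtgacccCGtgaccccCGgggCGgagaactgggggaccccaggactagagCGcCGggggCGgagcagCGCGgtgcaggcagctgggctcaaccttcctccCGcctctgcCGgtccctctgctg
Ano1 H3K4me3 summit: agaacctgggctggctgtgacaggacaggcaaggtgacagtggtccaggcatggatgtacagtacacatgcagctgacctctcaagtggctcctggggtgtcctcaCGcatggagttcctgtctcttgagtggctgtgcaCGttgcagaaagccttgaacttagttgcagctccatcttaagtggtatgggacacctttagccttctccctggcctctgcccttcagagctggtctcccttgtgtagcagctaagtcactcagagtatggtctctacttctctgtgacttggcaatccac
Entpd3 (chr9:120539568-120539867, plus strand) and Efemp1 (chr11:28852955-28853254, plus strand) are shown because they alone of the 6 held a match to the AP-1 motif TGANTCA, in capitals.
Entpd3: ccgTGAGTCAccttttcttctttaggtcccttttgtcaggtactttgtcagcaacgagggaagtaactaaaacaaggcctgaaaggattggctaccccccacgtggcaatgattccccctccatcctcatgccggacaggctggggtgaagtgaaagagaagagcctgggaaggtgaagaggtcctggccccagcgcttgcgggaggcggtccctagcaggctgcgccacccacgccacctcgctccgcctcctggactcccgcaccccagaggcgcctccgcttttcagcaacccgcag
Efemp1: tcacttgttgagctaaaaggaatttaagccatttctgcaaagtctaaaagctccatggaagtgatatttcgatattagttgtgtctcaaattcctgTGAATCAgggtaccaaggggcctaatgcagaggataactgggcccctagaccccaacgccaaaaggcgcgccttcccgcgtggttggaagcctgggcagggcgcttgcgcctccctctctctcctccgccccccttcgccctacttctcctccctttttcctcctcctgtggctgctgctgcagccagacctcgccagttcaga

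All 6 windows lay above the median of the 32851 RefSeq promoters in GC content, in the number of CpG and in the CpG ratio (observed over expected from the base composition). GC content ran from 54.3% in Efemp1 to 71.7% in Ano1, against a median of 52.7%. Glipr2 held 28 CpG with a ratio of 0.77 and Bcam 27 with 0.74, followed by Ano1 with 18 and 0.47 and Entpd3 with 15 and 0.55, while Efemp1 and Eci3 held 11 each with ratios near 0.51. The median promoter held 7 CpG with a ratio of 0.38. Of the motifs searched on both strands, the GC box GGGCGG occurred in 5 of 6, all but Entpd3, and in 35.7% of all promoters. AP-1 occurred in 2 of 6 and in 7.81% of all, beginning 247 bases before the Entpd3 start and 154 before that of Efemp1. The κB motif occurred in 1 of 6, Ano1, and in 8.46% of all. The TEAD motif GGAATG was in 0 of 6 and in 14.7% of all, and the TATA box TATAAA in 0 of 6 and in 13.6%. A match describes letters only, and binding was not measured.

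Around the H3K4me3 summit itself, all 7 genes had a CpG ratio below the list's median. In 300 bases centred on the summit the ratio was highest in Glipr2 (0.65), followed by Cavin3 (0.61), Efemp1 (0.57), Entpd3 (0.47), Bcam (0.34) and Eci3 (0.32). Ano1 had 2 CpG in the window printed above and a ratio of 0.093, with 1.00% of the list below it. The median over all 11894 H3K4me3 peaks of wt+TNFα was 0.78. It was 0.79 for the 11108 that touched an H3K4me3 peak of wt. For the 786 that touched none, the class of all 7 peaks, it was 0.51. Within that class it was 0.80 for the 218 that lay over an H3K27me3 peak of wt, and 0.38 for the 568 that did not.

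**Figure D1:**
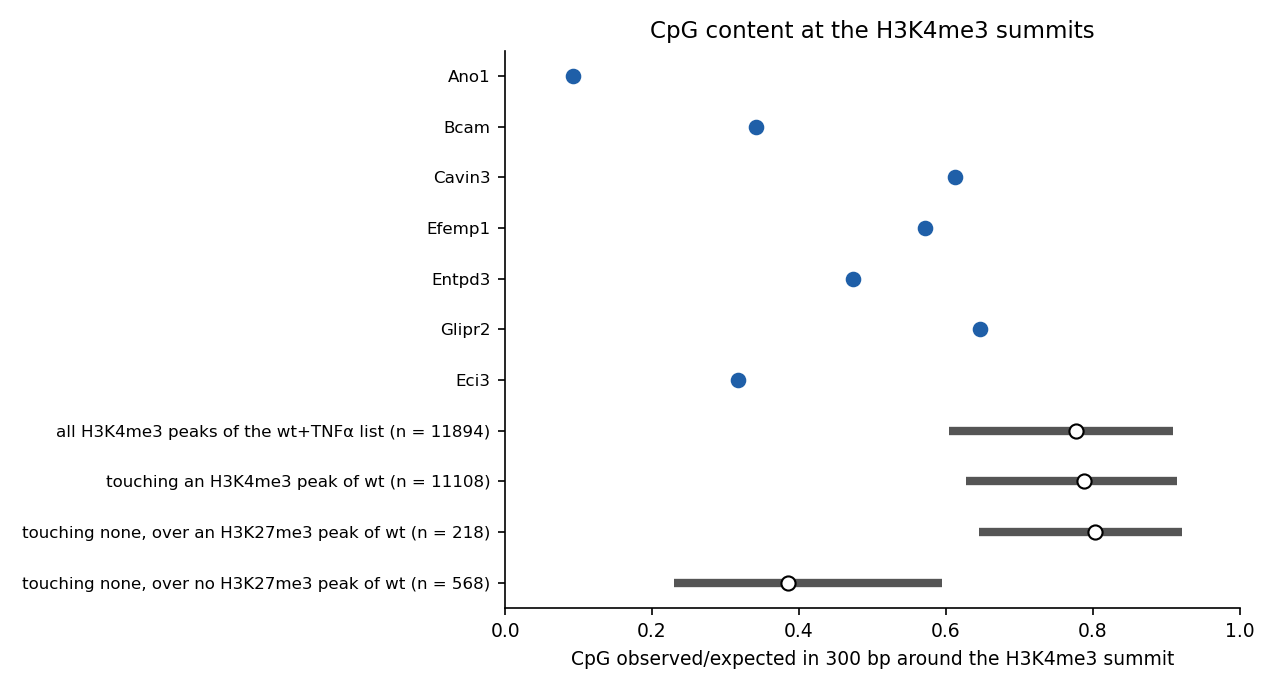
CpG observed/expected (x axis) in 300 bases around the wt+TNFα H3K4me3 summit of each of the 7 genes (blue points) and, below them, the median (open circle) and interquartile range (bar) of classes of the same list. The 7 genes lie between 0.093 and 0.65, below the list median of 0.78, with Ano1 lowest.

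Bcam, Efemp1, Entpd3, Glipr2, Cavin3 and Eci3 carried both peaks at the same transcript start. At 5 of these 6, all but Cavin3, the H3K4me3 summit lay inside the footprint of the wt H3K27me3 peak, and no peak of the 7 genes touched a peak of the same mark in the other condition. Only Ano1 joined peaks of 2 different starts. Of the 27 other genes that met the rule, 4 share a peak with one of the 7, and of the remaining 23, 22 had both peaks at 1 start.

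**Figure D2:**
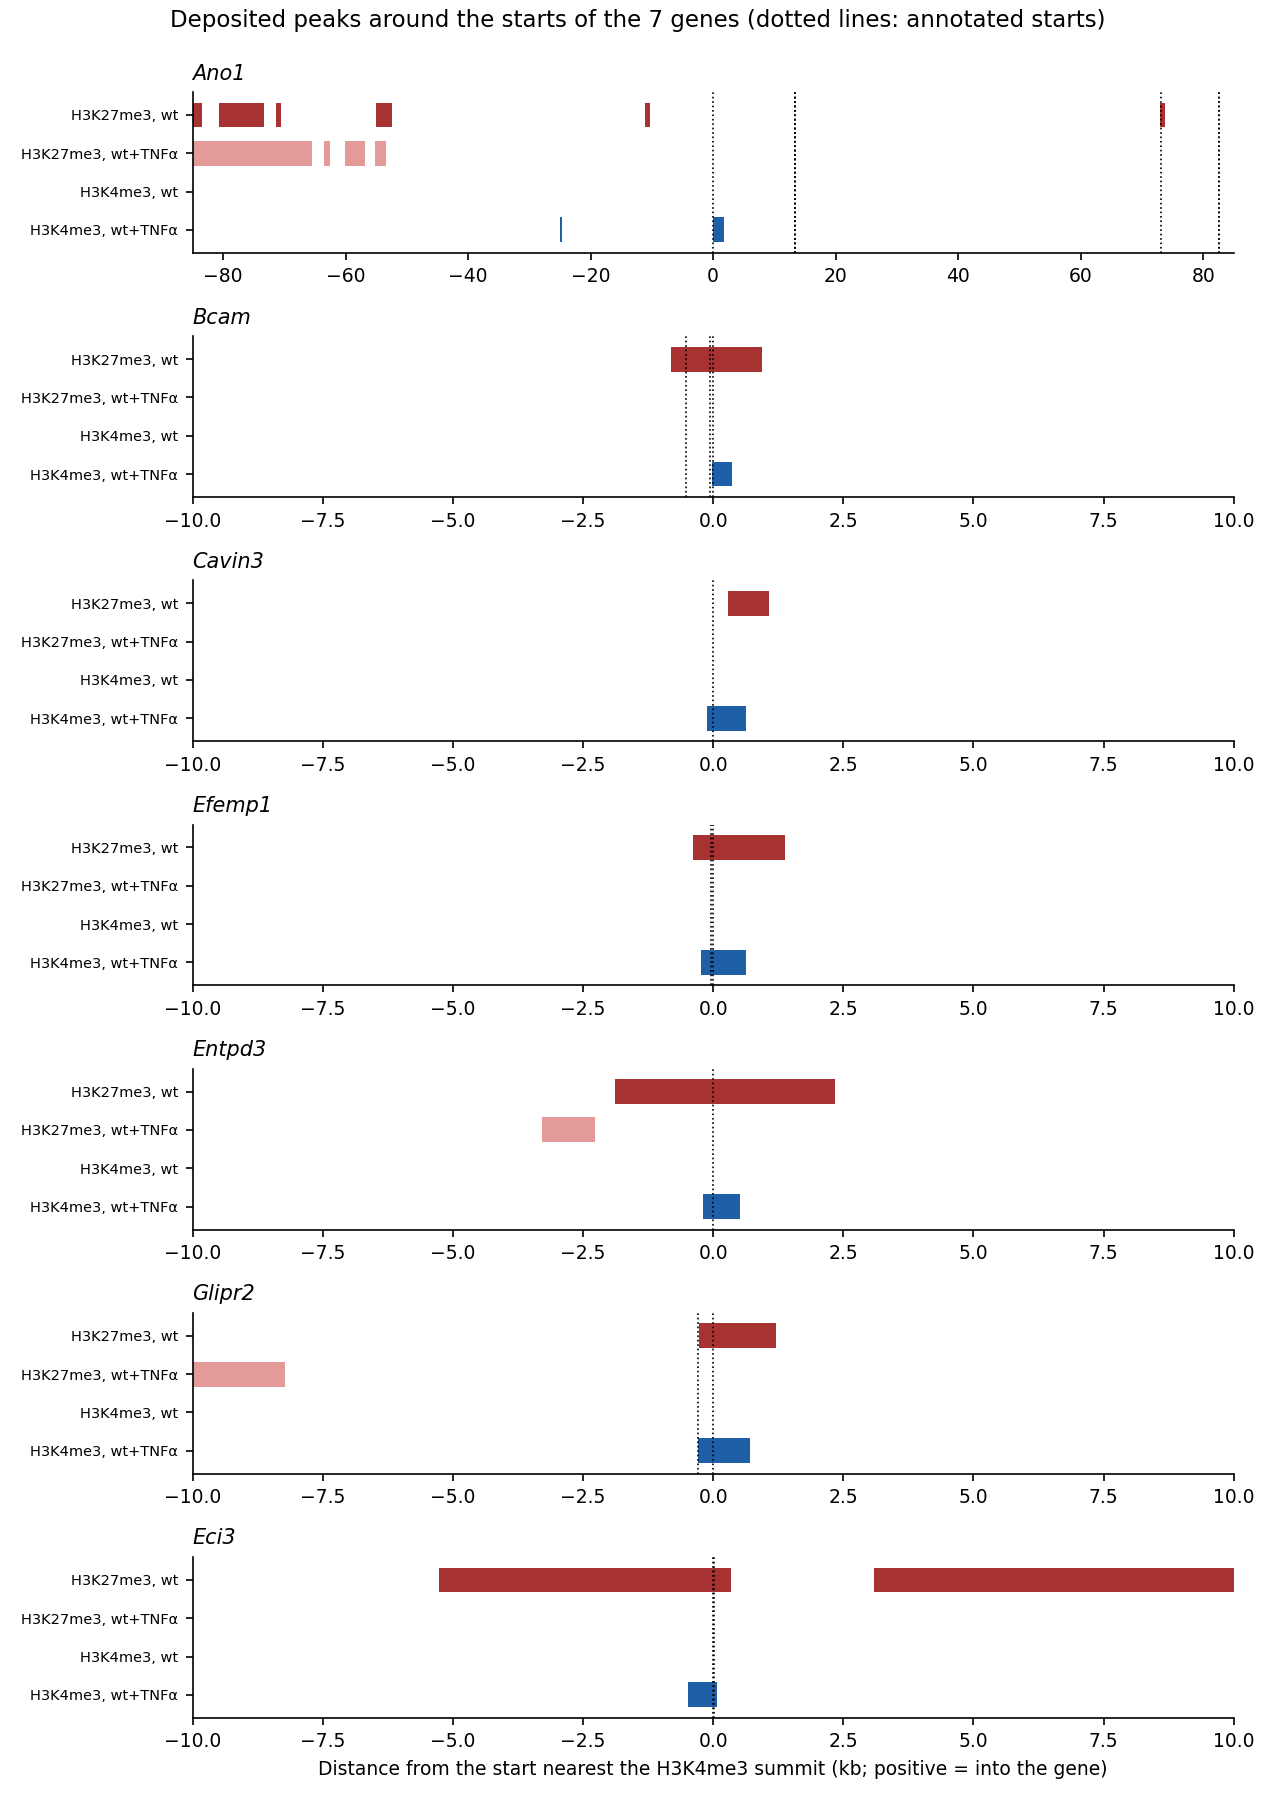
Deposited peaks (bars) in the 4 lists around each gene, by distance in kb from the start nearest the H3K4me3 summit, with positive values into the gene. Dotted lines are annotated starts, and the x axis spans 85 kb on each side for Ano1 and 10 kb for the others. In 6 genes the dark red wt H3K27me3 peak and the dark blue wt+TNFα H3K4me3 peak overlap; in Ano1 they are 71217 bp apart.

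Ano1, the chloride channel gene (ENSMUSG00000031075.18, chr7:144588549-144751974, minus strand), has 10 annotated starts. The wt H3K27me3 peak (chr7:144678152-144678959, 808 bp, of which 252 bp are exonic and 556 bp intronic) lay at the internal start of Ano1-205, with a fold enrichment of 1.98 and a −log10 q of 0.65. The wt+TNFα H3K4me3 peak (chr7:144750177-144751991, 1815 bp) lay at the outermost start, that of Ano1-208, with a fold enrichment of 10.3 and a −log10 q of 52.4. The starts are 73089 bp apart. The 2 starts with the best annotation support, those of Ano1-202 and Ano1-203, and the adjoining start of Ano1-201 had no peak in any list, so the rule was met by the gene and not by a single promoter. The summit was 273 bp into the gene, and 1709 of the peak's bases were intronic and 89 exonic. A further H3K4me3 peak of wt+TNFα alone, with a fold enrichment of 4.68, ended 24686 bp before the same start, and a wt H3K27me3 peak with no wt+TNFα counterpart, with a fold enrichment of 2.06, ended 10288 bp before it.

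Entpd3, the ectonucleotidase gene (ENSMUSG00000041608.8, chr9:120539818-120568327, plus strand), had the highest −log10 q of the 7 H3K27me3 peaks. That wt peak (chr9:120537927-120542163, 4237 bp) covered 100% of the promoter window of Entpd3-201, with a fold enrichment of 2.42 and a −log10 q of 2.2. The wt+TNFα H3K4me3 peak (chr9:120539627-120540326, 700 bp) lay wholly inside it, with a fold enrichment of 11.3 and its summit 168 bp into the gene. It was the only one of the 7 whose flank held a wt+TNFα H3K27me3 peak within 5000 bp: a peak of 1015 bp, fold enrichment 1.82, ended 2265 bp before the start. The second annotated start, of the retained-intron transcript Entpd3-202, had no peak in any list.

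Bcam (ENSMUSG00000002980.14, chr7:19756131-19771016, minus strand), the laminin receptor gene, had a wt H3K27me3 peak of 1741 bp (chr7:19769565-19771305, fold enrichment 2.17, −log10 q 1.47) over 3 of its 4 distinct starts. The wt+TNFα H3K4me3 peak (chr7:19770137-19770518, fold enrichment 6.16, −log10 q 18.8) was the narrowest of the 7, at 382 bp, and lay wholly in the gene, with 112 bp exonic and 270 bp intronic. Its nearest H3K4me3 peak in wt was 6196 bp from a start and its nearest H3K27me3 peak in wt+TNFα 80730 bp. The noncoding gene Gm26600 shares both peaks, and reads at the shared promoter cannot be assigned to either gene.

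Efemp1, the fibulin-3 gene (ENSMUSG00000020467.15, chr11:28853204-28926743, plus strand), had the highest H3K27me3 fold enrichment of the 7, at 2.44, with a −log10 q of 1.93 (chr11:28852859-28854629, 1771 bp). The wt+TNFα H3K4me3 peak (chr11:28853011-28853874, 864 bp, fold enrichment 11.2, −log10 q 43.1) was wholly inside that footprint, and its summit lay 68 bp from the start of Efemp1-202. Both peaks sat at the outer 2 starts, while the start of Efemp1-203, the third, had none. It was also the most isolated: the nearest H3K4me3 peak of wt lay 214469 bp from a start.

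Cavin3 (ENSMUSG00000037060.3, chr7:105480083-105482300, minus strand), the caveolar coat gene, has 1 annotated start and the lowest wt H3K27me3 values of the 7. Its wt peak (chr7:105481224-105482020, 797 bp) had a fold enrichment of 1.98 and a −log10 q of 0.46 and began 280 bp into the gene, the farthest from a start among the 7. The wt+TNFα H3K4me3 peak (chr7:105481677-105482414, 738 bp, fold enrichment 9.93, −log10 q 35.4) crossed the start, with 46.6% of its length under the wt H3K27me3 footprint. The summit, 194 bp into the gene, lay outside that footprint. Gm45667 overlaps the same peaks.

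Glipr2 (ENSMUSG00000028480.14, chr4:43957401-43979118, plus strand), the Golgi-associated CAP gene, had a wt H3K27me3 peak of 1471 bp (chr4:43957423-43958893, fold enrichment 2.04, −log10 q 1.39) and a wt+TNFα H3K4me3 peak of 994 bp (chr4:43957399-43958392, fold enrichment 9.97, −log10 q 46.9). They shared 970 bp, or 97.6% of the H3K4me3 peak, over the start of Glipr2-202. The H3K4me3 peak alone also covered the start of Glipr2-201. The summit was 51 bp past the start of Glipr2-202.

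Eci3, the peroxisomal isomerase gene (ENSMUSG00000021416.11, chr13:34946614-34963810, minus strand), had the widest H3K27me3 peak and the weakest H3K4me3 peak of the 7. The wt H3K27me3 peak (chr13:34963469-34969085, 5617 bp, fold enrichment 2.13, −log10 q 0.91) reached mainly upstream, and a second wt peak (fold enrichment 2.38) began 3082 bp into the gene and reached 19074 bp, past the gene's end. The wt+TNFα H3K4me3 peak (chr13:34963742-34964293, 552 bp) had a fold enrichment of 4.13 and a −log10 q of 10.4, where the lowest −log10 q of that list is 6.95. Its summit lay 244 bp before the start, the only one of the 7 outside its gene. The noncoding genes Gm16984 and Gm47217 have the same 2 peaks in their promoters.

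The H3K4me3 peaks of the 7 genes were weak ones of their list, whereas the H3K27me3 peaks spread over their list. H3K4me3 fold enrichment ran from 4.13 (Eci3) to 11.3 (Entpd3), with a median of 9.97, and all 7 values were below the list median of 26.97. At most 17.2% of the list had a lower fold than any of them. For the 471 genes with H3K4me3 in wt+TNFα alone, which were 0.851% of all genes, the median was 7.68, for the 23 other genes with the exchange that share no peak with the 7 it was 15.2, and for the 13201 genes with H3K4me3 in both conditions 30.5. In the wt H3K27me3 list, fold enrichment ran from 1.98 (Cavin3) to 2.44 (Efemp1), with a median of 2.13 against 2.12 for the 576 genes with H3K27me3 in wt alone (1.04% of all genes), 2.52 for the same 23 genes and 2.60 for the 7300 genes with H3K27me3 in both conditions. The median −log10 q was 1.39 for the 7 and 2.21 for those 23. It reached 2 at Entpd3 alone, as it did for 12.8% of the wt list, so with H3K27me3 peaks held to that level 1 of the 7 genes met the rule. The 2 H3K27me3 lists have unlike floors on this scale: the lowest −log10 q is 0.30 in wt and 0.75 in wt+TNFα, and the wt peaks of Cavin3 and Ano1 lie below the latter. With both lists held to the higher floor, 5 of the 7 genes met the rule, all but those 2. On the scale of −log10 p the floors are 2.01 and 2.02, the lowest of the 7 wt peaks is at 2.29 (Cavin3), and all 7 met the rule with both lists held to the higher one. The reporting summary of the study lists more reads for the wt+TNFα H3K4me3 library and input than for those of wt, and the part of this in the calls was not tested.

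**Figure D3:**
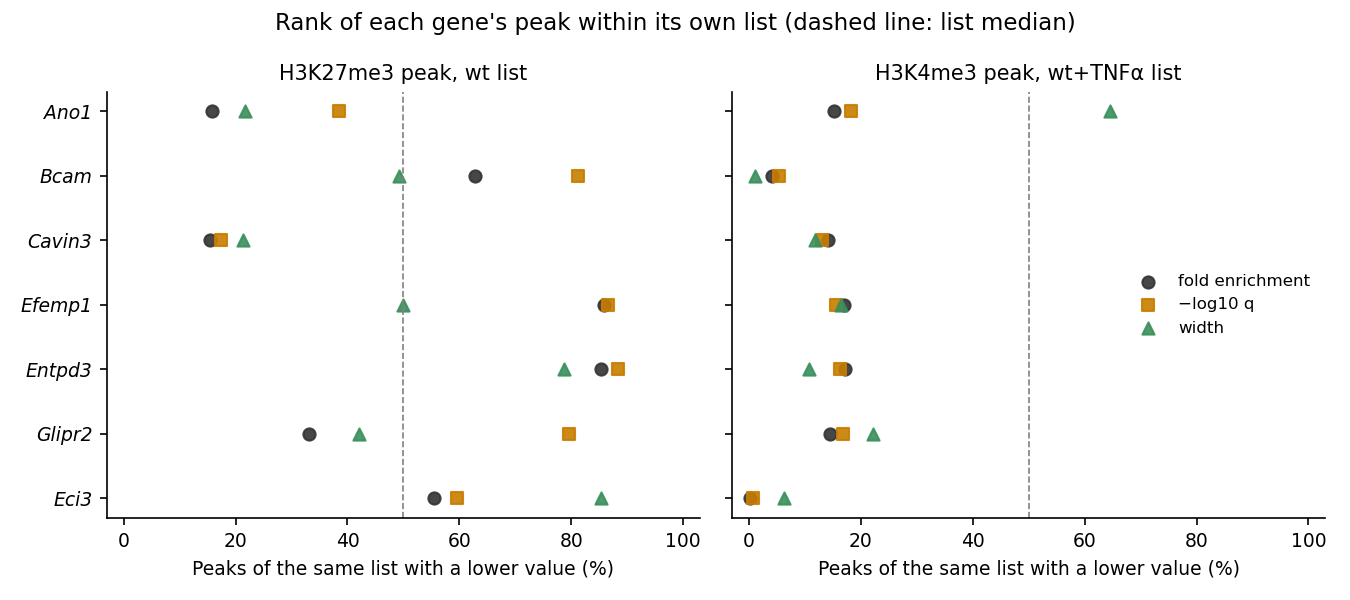
Rank of each gene's peak within its own list, as the percentage of peaks of that list with a lower fold enrichment (circles), −log10 q (squares) or width (triangles); the dashed line is the list median. Left, wt H3K27me3: fold ranks run from 15.5% to 85.9%. Right, wt+TNFα H3K4me3: fold ranks run from 0.21% to 17.2%, and only the width of the Ano1 peak lies above the median.

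The 34 genes with the exchange were 5.90% of the 576 with H3K27me3 in wt alone and 7.22% of the 471 with H3K4me3 in wt+TNFα alone. The mirror exchange, with H3K27me3 in wt+TNFα alone and H3K4me3 in wt alone, was met by 32 genes, or 0.0578%, and by 25 protein-coding genes, or 0.114%. For the single marks, H3K27me3 was called in wt+TNFα alone at 5514 genes and H3K4me3 in wt alone at 225. Of the 32 mirror genes, 5 were on chromosome X, while 0 of the 34 were. Of the 471 genes, 215 had H3K27me3 in both conditions, 196 in neither and 26 in wt+TNFα alone, and of the 576, 169 had H3K4me3 in both conditions and 373 in neither. The protein-coding genes outside the 7 with the same presence in all 4 lists and the highest wt+TNFα H3K4me3 fold enrichment were Hoxb6 (35.0), Parp8 (27.8), Lor (24.1) and Nt5c1a (23.5), each above the 11.3 of Entpd3.

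The neighbours of the 7 genes mostly had the same marks in both conditions, as did most protein-coding genes. Of the 42 nearest protein-coding genes, 3 on each side of each gene, 36 had the same presence of both marks in both conditions, and 6 (14.3%) differed in at least 1 mark, against 12.1% of all protein-coding genes. None of the 42 had the exchange, which 0.114% of protein-coding genes met, a share so low that nothing is read from the zero. H3K27me3 was present at 35.7% of the neighbours in wt and at 42.9% in wt+TNFα, against 21.7% and 29.5% of protein-coding genes, and H3K4me3 at 59.5% and 61.9%, against 50.5% and 51.2%.

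**Figure D4:**
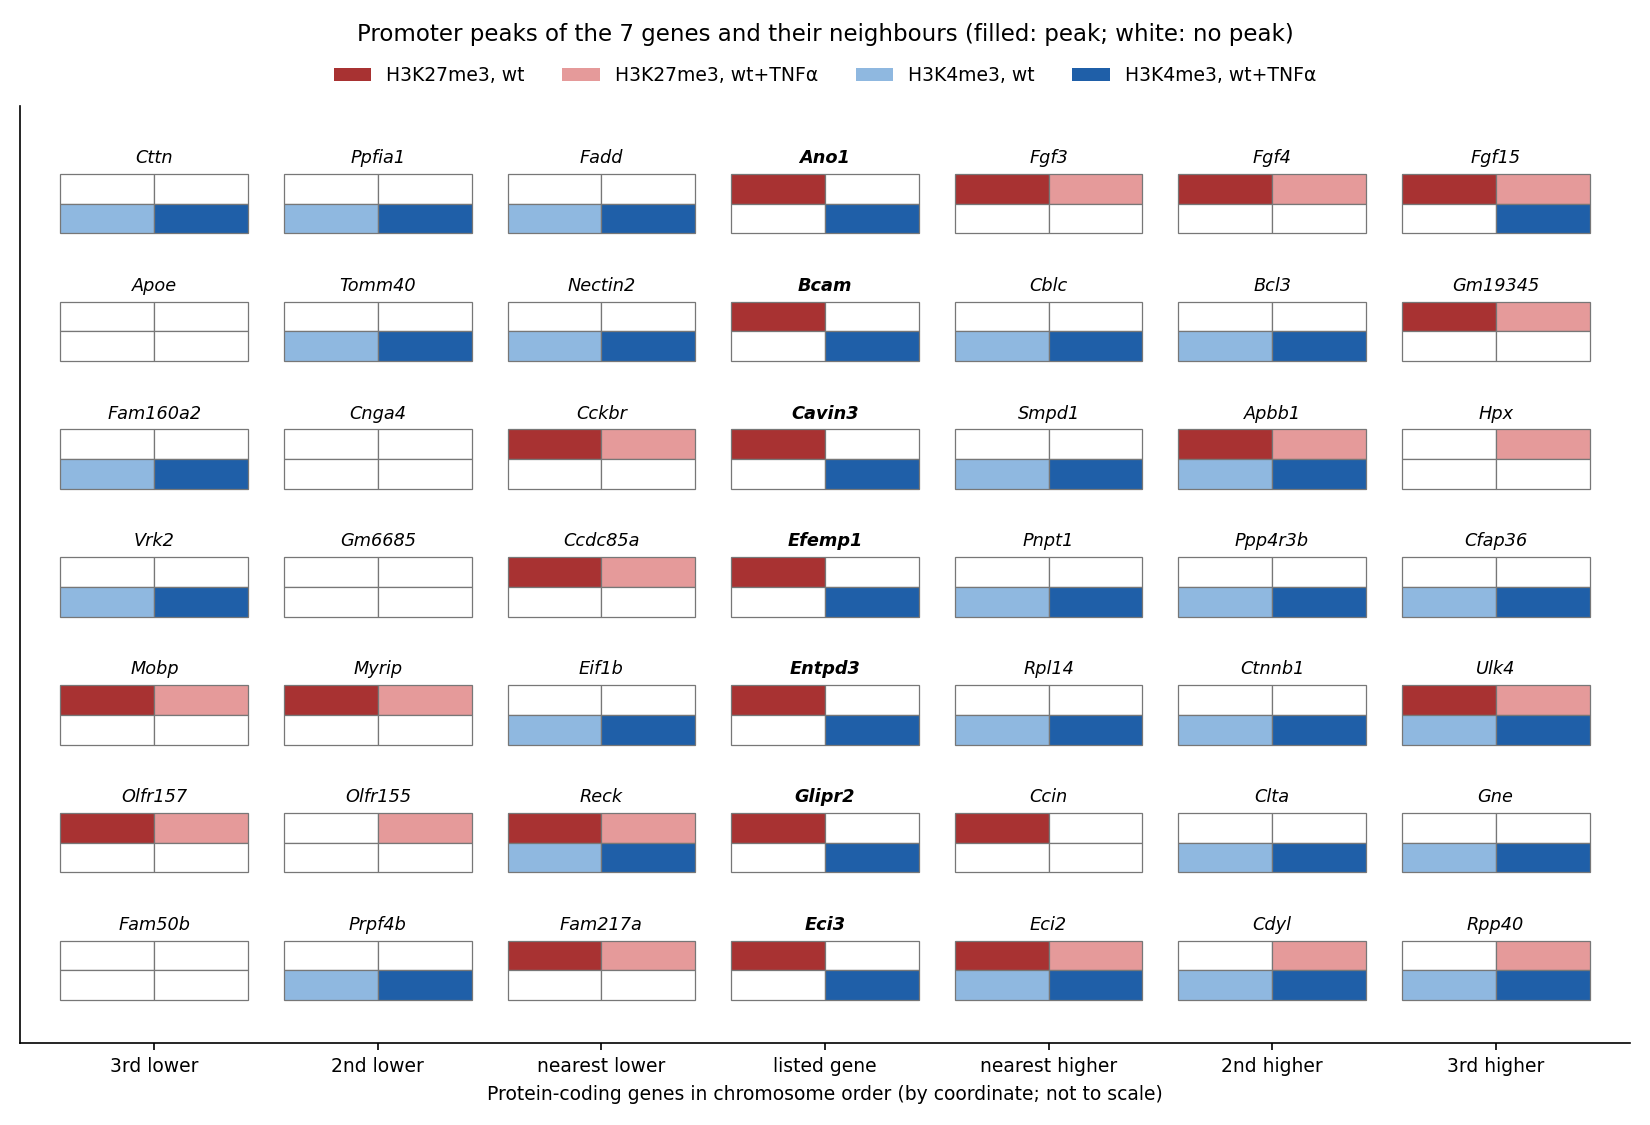
Promoter peaks of the 7 genes (centre column) and of the 3 nearest protein-coding genes on each side, in coordinate order and not to scale. In each box the upper row is H3K27me3 and the lower row H3K4me3, with wt on the left and wt+TNFα on the right; filled means a peak. The 36 neighbours with the same fill on both sides surround the 7 diagonal patterns of the centre.

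Beyond the Ano1 start lies a group of fibroblast growth factor genes. Fgf3 and Fgf4 had H3K27me3 in both conditions: fold enrichment was 4.62 at Fgf3 and 3.82 at Fgf4 without TNFα, and 3.85 and 3.41 with it. Fgf15, the intestinal hormone gene that restrains bile acid synthesis, had H3K27me3 in both (3.38 and 2.37), while its H3K4me3 peak was called in wt+TNFα alone, with a fold enrichment of 22.7, above that of each of the 7 genes. It was the only neighbour with H3K4me3 in wt+TNFα alone. On the other side, Fadd, an adaptor of death receptors, Ppfia1 and Cttn had H3K4me3 in both conditions.

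Bcam lay between promoters that carried H3K4me3 in both conditions: Nectin2, an adhesion gene 5647 bp away, had a fold enrichment of 33.1 without and 53.4 with TNFα, and Tomm40, Cblc and Bcl3, an atypical IκB protein, also had the mark in both. Apoe had no peak in any list, and Gm19345 had H3K27me3 in both. Next to Entpd3, the ribosomal protein gene Rpl14, 3116 bp away, had H3K4me3 in both conditions (25.4 and 33.7), as did Eif1b and Ctnnb1, while Myrip and Mobp had H3K27me3 in both and Ulk4 had both marks in both. Around Cavin3, Smpd1 and Fam160a2 had H3K4me3 in both, Cckbr H3K27me3 in both and Apbb1 both marks in both, Cnga4 had no peak, and Hpx had H3K27me3 in wt+TNFα alone with a fold enrichment of 2.02.

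Next to Glipr2, Ccin was the only neighbour with H3K27me3 in wt alone (fold enrichment 2.02), and Olfr155 had it in wt+TNFα alone (1.92). Reck, an inhibitor of matrix metalloproteinases, had both marks in both conditions, Olfr157 H3K27me3 in both, and Clta and Gne H3K4me3 in both. The paralogue Eci2, 13937 bp from Eci3, had all 4 peaks, and in the wt+TNFα list its H3K4me3 fold enrichment was 15.9, above the 4.13 of Eci3. Farther out, Cdyl and Rpp40 had H3K4me3 in both and H3K27me3 in wt+TNFα alone (1.89 and 1.77), Prpf4b had H3K4me3 in both, Fam217a and the overlapping 4933417A18Rik H3K27me3 in both, and Fam50b none. Around Efemp1, Pnpt1, Ppp4r3b, Cfap36 and Vrk2 had H3K4me3 in both conditions and Ccdc85a H3K27me3 in both, with no peak at Gm6685.

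Within 100 kb to each side of the outermost start, H3K27me3 peaks covered more in wt+TNFα than in wt around 4 of the 7 genes, and less around Bcam (3.24% without TNFα), Efemp1 (0.885%) and Eci3 (20.05%). Over all protein-coding genes the medians were 2.50% and 9.47%. Of these genes, 77.6% had more cover in wt+TNFα, 4.68% had less and the others had equal cover. The peaks that met the rule were then left out whole, bases beyond the promoters included. Since for H3K27me3 these are wt peaks, this lowers wt cover by construction. The remaining cover was 15.8% without and 29.9% with TNFα at Glipr2, 18.9% and 23.5% at Entpd3, 13.3% and 19.5% at Ano1, 10.9% and 17.4% at Cavin3, 17.24% and 17.35% at Eci3, 2.37% and 3.01% at Bcam, and 0% and 0.853% at Efemp1. Eci3 thus differed least. Nothing particular to the 7 is read from these directions. H3K4me3 cover without the selecting peaks was higher in wt+TNFα in 5 windows, lower at Cavin3 (1.90% without and 1.87% with TNFα) and 0 in both conditions at Efemp1. Since the selecting H3K4me3 peaks are wt+TNFα peaks, leaving them out lowers wt+TNFα cover by construction. With every peak counted, H3K4me3 cover was higher in wt+TNFα at all 7 genes, whose selecting peaks add to it. Counted in the same way, it was higher at 61.9% of protein-coding genes, whose medians were 1.46% and 1.59%.

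**Figure D5:**
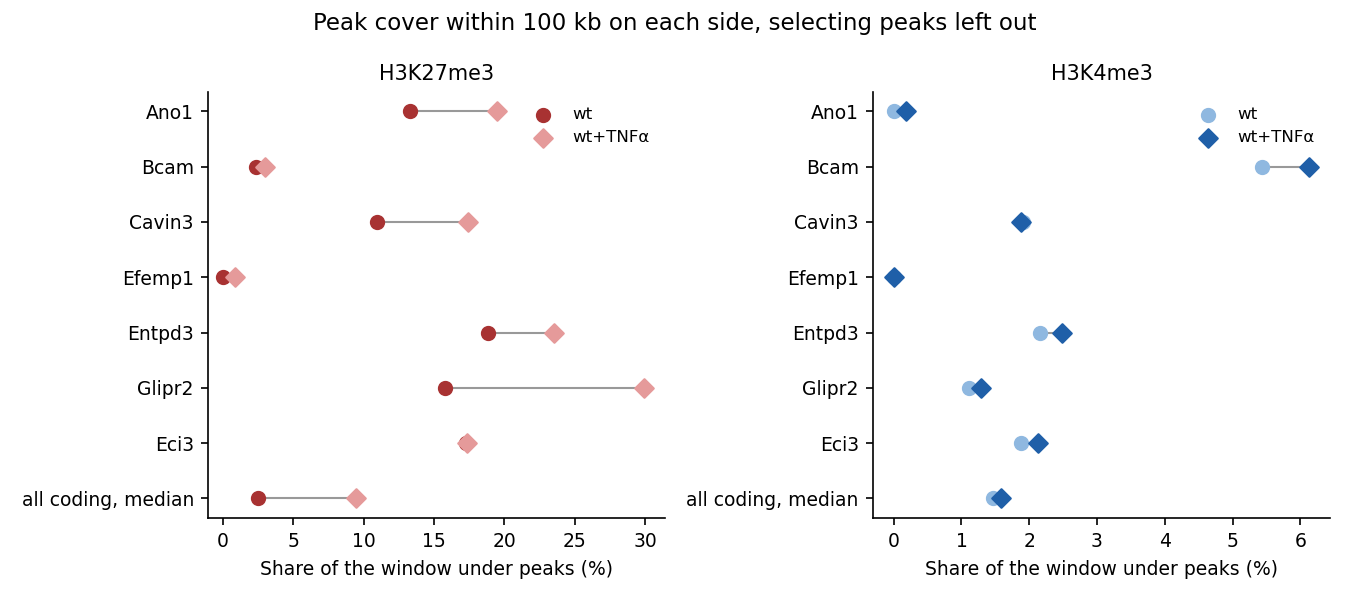
Share of the 100 kb on each side of the outermost start that lies under peaks (x axis, %), in wt (circles) and wt+TNFα (diamonds), for each gene without the peaks that met the rule, and as the median over protein-coding genes with all peaks. H3K27me3 cover (left) is higher in wt+TNFα at all 7, by the least at Eci3 where the symbols coincide; H3K4me3 cover (right) is higher at 5, lower at Cavin3 and 0 at Efemp1.

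The marks of relatives were read from 7 family lists. Of the 68 relatives, 0 had H3K4me3 in wt+TNFα alone and 0 had H3K27me3 in wt alone. Among all protein-coding genes 1.49% and 1.21% did, shares so low that nothing is read from the zeros. The lists were chosen with these results known, and their counts are a description. Over all protein-coding genes, H3K4me3 was present at 50.5% in wt and 51.2% in wt+TNFα, and H3K27me3 at 21.7% and 29.5%. All 8 fibulin genes had H3K27me3 in wt, and 7 of them, among them Efemp2, Fbln1 and Fbln2, had it in wt+TNFα as well and had no H3K4me3 in either condition. Efemp1, for which the rule required it, was the one fibulin gene with H3K4me3. The laminin receptors and epithelial laminin chains were mostly marked by H3K4me3, at 11 of 14 genes in both conditions (Cd151, Dag1, Itga3 and Itga6 among them), and Lama3 and Lamb1 had H3K27me3 in both. Lamb3 had H3K4me3 in both, with H3K27me3 in wt+TNFα alone at a fold enrichment of 1.75.

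Among the nucleotide-hydrolysing enzymes, 8 of 10 had H3K4me3 in both conditions, with Entpd1 carrying H3K27me3 in both as well, and Entpd4 had no peak. Of the 10 anoctamins, Ano6, Ano8 and Ano9 had H3K4me3 in both, Ano2 and Ano4 had H3K27me3 in both, Ano3 had H3K27me3 in wt+TNFα alone and 3 had no peak. Of the 7 cavins and caveolins, Cavin1 and Cav2 had H3K4me3 in both, Cav1, the main caveolin of caveolae, had H3K27me3 in both (2.95 and 2.003), and Cavin1 and Cav3 had H3K27me3 in wt+TNFα alone. In the CAP superfamily, 7 of 12 genes had no peak. Pi16 and Crispld2 had H3K27me3 in both, and Glipr1l1 and Clec18a had it in wt+TNFα alone. Glipr2, for which the rule required it, was the only gene of that list with H3K4me3. Of the 14 isomerase and peroxisomal β-oxidation genes, 11 had H3K4me3 in both conditions, among them Acaa1a, Acox3 and Decr2, and Acaa1b had it in wt alone (7.01) with H3K27me3 in both.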

How the data were processed

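ChIP-seq of the 2 marks was made from wt and wt+TNFα organoids, 1 library each. The authors used fastp to trim reads, BWA (version 2.2) to map them to GRCm38/mm10 and SAMtools (version 1.11) to remove duplicates, left out blacklisted regions, and ran MACS2 with the input as control, in broad mode for H3K27me3 and narrow mode for H3K4me3. The labels give MACS2 version 2.1.0, and the reporting summary another. Each deposited list gives a fold enrichment (a ratio of ChIP signal to local background), p-values and q-values as −log10, an integer display score and, for H3K4me3, the summit's offset from the peak start; the score was not used. In a broad list, fold and −log10 q are averages over the peak. A spike-in is mentioned in the names of 3 of the 4 deposited lists; the exception is wt+TNFα H3K27me3, the list in which a peak had to be absent, and the effect on the calls was not tested. Fold enrichments, which each library fixes for itself, were ranked within a list only. The 2 inputs have no peak list and were not used here.

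Peaks were converted to 1-based coordinates and assigned to the promoters of GENCODE M21 (55450 genes, 55341 symbols, 141767 transcripts, all types) by an overlap of at least 1 bp. Genes were counted by symbol. The text names the 7 genes, the 3 nearest protein-coding genes on each side, members of the family lists whose marks differ between conditions with up to 4 examples of the others, and the 5 other protein-coding genes with the exchange and the highest wt+TNFα H3K4me3 fold enrichment. Further examples were named after their values were seen. Some genes under this rule are not reported here. The genes, the lists and the settings were chosen with earlier results of these data known. Promoter sequences came from RefSeq, and the 6 windows found were identical to the GRCm38 genome. The assignment of peaks to promoters was tested on simulated data. Python 3.11.15, numpy 2.4.6 and matplotlib 3.10.9 were used. Because the depth behind a single peak is not in the lists, no interval is given.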

Additional observations from a re-analysis of the deposited data

How the results depend on the processing

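The exchange was recomputed under 18 other settings, 12 of them planned and 6 added after the data were seen (both peaks at 1 start, transcripts of support level 1, a −log10 q of at least 2 asked only where H3K27me3 must be present, autosomes alone, and both H3K27me3 lists held to the higher of their lowest −log10 q or −log10 p). All 7 genes met it under 9 settings and 6 of them under 5. Of the 9, autosomes alone, the count by base and the common lowest −log10 p could not lose any of the 7. None of the genes is on a sex chromosome, the count by base keeps every gene that meets the rule, and all their H3K27me3 peaks lie above that −log10 p. Where 6 met it, Entpd3 was lost with promoters of 5000 bp on each side and Eci3 with equal numbers of peaks per mark. Ano1 was lost with 1 start per gene, both peaks at 1 start or support level 1. With a common lowest −log10 q, 5 were left, without Ano1 and Cavin3. With H3K27me3 peaks of −log10 q of at least 2, in every list or only where the mark must be present, 1 gene was left, Entpd3, and 0 were left when each list was cut at its median −log10 q, since all 7 H3K4me3 peaks lie below it.

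Over all genes, 34 met the exchange, 554 when it was counted by base and 14 with −log10 q of at least 2 where H3K27me3 must be present; the other settings were within 1.5 times. The mirror exchange, 32 genes, came to 60 for whole peaks that touch none of the other condition, 19 with support level 1 and 16 with −log10 q of at least 2 where the mark must be present. More genes met the exchange than the mirror under 9 settings and fewer under 6, the count by base left out. H3K27me3 cover within the windows was higher in wt+TNFα at 4 genes with every peak counted and at 7 with the selecting peaks left out, a setting also added after the data were seen; leaving out wt-only peaks lowers wt cover by construction. The cause of the other differences was not tested. With 1 library per condition and mark, no library could be left out, and a peak that is not listed may lie just under the caller's threshold, which differs between the H3K27me3 lists in q.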
